A study of Homo sapiens with 2 samples.

Results

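The BCL2 family sets whether a cell keeps its mitochondrial outer membrane intact or permeabilises it and dies by apoptosis. The 10 genes described here were chosen by name for their roles, though earlier results of these data were known by then. Pro-survival are BCL2, BCL2L1 (encoding BCL-XL) and MCL1, and BAX and BAK1 are the pore-forming effectors. The BH3-only genes are BBC3 (PUMA), PMAIP1 (NOXA), BID, BAD and BCL2L11 (BIM). Together these 10 are among the 51296 gene symbols analysed. RNA-seq was made from 22Rv1, a human prostate cancer cell line that grows without androgen supply, carrying either a hairpin RNA against EIF3F (shEIF3F) or the control vector (shCON). Each group had 1 library. No difference below could be checked against replicates, and none carries a p-value or an error. With 1 hairpin, effects of EIF3F loss and other effects of that hairpin cannot be told apart.

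Pro-survival members hold the effectors in check by binding them and their activators. BH3-only proteins relay damage, stress or growth factor loss by occupying the pro-survival proteins or by activating BAX and BAK1 directly. Once assembled into pores, the effectors let cytochrome c escape into the cytosol, where it drives the apoptosome and the caspases.

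Values are TPM, which divides each gene's reads by transcript length and by the library total. The unit does not retain how many reads a value rests on, so depth is unknown. EIF3F, the targeted gene, stood at 17.0 TPM in shEIF3F, against 991 TPM in shCON, 1.72% of the control level. All 11 luminal prostate markers averaged at least 1 TPM over both libraries, with KRT8 at 347 TPM in shEIF3F and 301 TPM in shCON. Of the 11, 5 were at least 2-fold lower in shEIF3F by the rule given below, where 25.5% of all genes tested were. An example is KLK2, at 2.5 TPM in shEIF3F and 32.6 TPM in shCON. By that rule 2 were higher, EPCAM and FOLH1, beside 8.44% of all genes. FOLH1, the surface antigen PSMA, stood at 482 TPM in shEIF3F and 146 TPM in shCON. Subtracting the general shift of -0.36, explained below, left 2 of the 11 lower and 4 higher. Of all genes, 16% were then lower and 14.7% higher. Of markers of other cells, 0 of 4 endothelial and 0 of 3 basal genes reached a mean of 1 TPM, with 3 and 2 of them listed at 0 in each library. The leukocyte list reached it in 2 of 8 genes and summed to 6.37 TPM in shEIF3F and 7.38 TPM in shCON, with PTPRC, the pan-leukocyte gene, at 0.03 TPM in shEIF3F and 0.11 TPM in shCON. The fibroblast list reached it in 3 of 6 and summed to 27.04 TPM in shEIF3F and 40.5 TPM in shCON, mostly LUM at 20.9 TPM in shEIF3F and 24.3 TPM in shCON and DCN at 4.86 TPM in shEIF3F and 12.9 TPM in shCON, with PDGFRA listed at 0 in both. The part of these markers in the differences below was not tested.

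Differences are given as log2((shEIF3F TPM + 1) / (shCON TPM + 1)), called the log2 ratio below, for genes with a mean of at least 1 TPM. A gene at 1 or more, or at -1 or less, is called at least 2-fold higher or lower, a rule of size and not a test. Of the 10 genes, 9 reached the mean of 1 TPM, and BCL2 did not. In shEIF3F, BAD, BBC3 and BAX were at least 2-fold lower, 3 of the 9, where 25.5% of all 13307 genes tested were lower by that rule. At least 2-fold higher were 0 of the 9, against 8.44% of all genes. The median log2 ratio was -0.63 over the 9 genes and -0.36 over all genes tested. The count of members called lower is thus close to the share of all genes, whereas the classes differed relative to each other. In a bulk sample, fewer cells with a transcript and less of it per cell cannot be told apart.

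**Figure D1:**
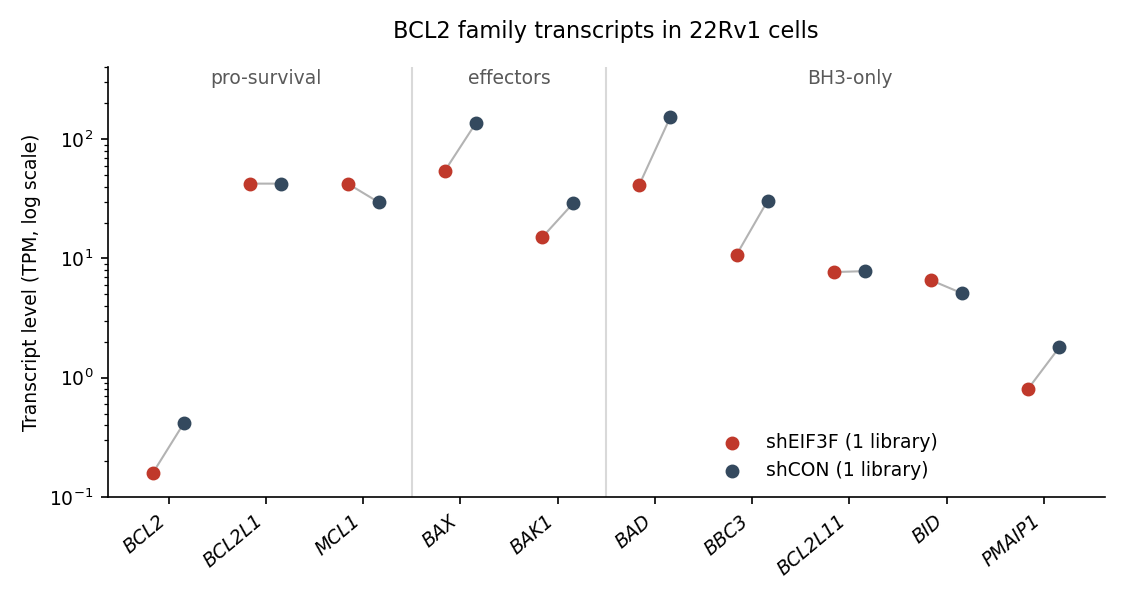
Level of each of the 10 BCL2 family genes (TPM, log scale), grouped by role, with 1 point for the shEIF3F library and 1 for the shCON library and a line joining the same gene. The shEIF3F point lies below the shCON point for BAX (54.3 TPM in shEIF3F, 137 TPM in shCON), BAK1, BAD, BBC3, PMAIP1 and BCL2, and above it for MCL1 (42.5 TPM in shEIF3F, 29.6 TPM in shCON) and BID.

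Among the pro-survival genes, BCL2L1 and MCL1 carried nearly all of the transcript. BCL2L1, whose main product BCL-XL guards the outer membrane in many epithelial cells, stood at 42.40 TPM in shEIF3F and 42.38 TPM in shCON (log2 ratio 0.00066). MCL1, whose short-lived protein restrains BAK1 in particular, stood at 42.5 TPM in shEIF3F and 29.6 TPM in shCON (log2 ratio 0.51). Its log2 ratio lay above that of 82.1% of genes tested. The founding member BCL2 was near the bottom of the scale, at 0.16 TPM in shEIF3F and 0.42 TPM in shCON, too low for a ratio. BCL2L1 and MCL1 therefore stood level in shEIF3F, with 49.9% of pro-survival TPM each, whereas in shCON BCL2L1 held 58.6% and MCL1 40.8%.

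Both effectors were lower in shEIF3F. BAX, which moves from the cytosol to mitochondria when activated, stood at 54.3 TPM in shEIF3F and 137 TPM in shCON (log2 ratio -1.32). BAK1, which resides in the outer membrane, stood at 15 TPM in shEIF3F and 29.02 TPM in shCON, just inside 2-fold (-0.91). BAX was the more abundant of the effectors in both libraries, with 78.4% of their TPM in shEIF3F and 82.5% in shCON. BAX still ranked above 88.3% of the genes at 1 TPM or more in shEIF3F, against 93.1% in shCON.

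The BH3-only genes were divided. BAD, which neutralises BCL2 and BCL-XL unless growth factor signalling keeps it phosphorylated, had the lowest log2 ratio of the 9 at 41.6 TPM in shEIF3F and 154 TPM in shCON (-1.87). BBC3, whose product PUMA binds every pro-survival member, stood at 10.7 TPM in shEIF3F and 30.5 TPM in shCON (-1.43). These were the BH3-only genes past 2-fold, and they ranked highest of their class in both libraries. BCL2L11, whose product BIM is an activator of BAX and BAK1, hardly differed, at 7.68 TPM in shEIF3F and 7.82 TPM in shCON (-0.02). BID, which caspases cut to link death receptors to mitochondria, was slightly higher, at 6.56 TPM in shEIF3F and 5.09 TPM in shCON (0.31). PMAIP1, whose product NOXA binds MCL1, stood at 0.81 TPM in shEIF3F and 1.80 TPM in shCON. Its log2 ratio of -0.63 is damped by the added 1 TPM, since the bare ratio is 45.0% of the control level. Of the 5 BH3-only genes, 2 were thus past 2-fold and 3 were not.

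Summed over their members, the classes differed in direction. Pro-survival transcripts summed to 85.0 TPM in shEIF3F and 72.4 TPM in shCON (log2 ratio 0.23), with MCL1 higher and BCL2L1 level. The pro-survival gene BCL2L2, at 3.12 TPM in shEIF3F and 14.3 TPM in shCON, is not among the 10 genes. The direction of this sum thus depends on which genes were listed. Effector transcripts summed to 69.3 TPM in shEIF3F and 166 TPM in shCON (-1.25), and BH3-only transcripts to 67.3 TPM in shEIF3F and 199 TPM in shCON (-1.55). The pro-survival class made up 38.4% of the TPM of the 10 genes in shEIF3F and 16.5% in shCON. BAD gave 61.7% of BH3-only TPM in shEIF3F and 77.3% in shCON, so the sum of that class rests largely on this gene.

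**Figure D2:**
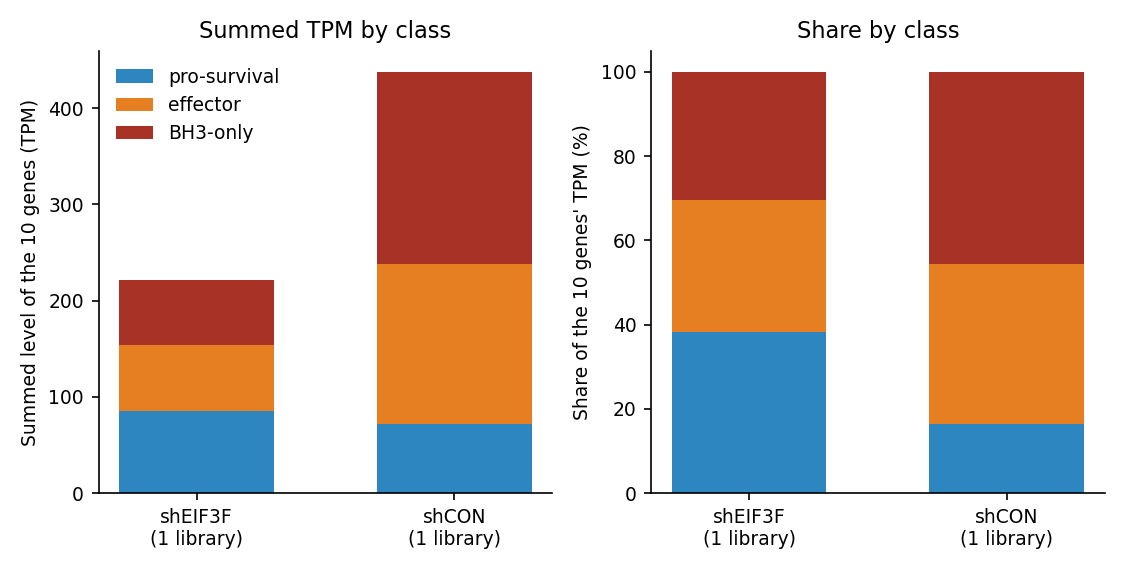
Stacked bars of the 10 BCL2 family genes by class, as summed TPM (left panel) and as percent of their total (right panel), for the shEIF3F and the shCON library. The pro-survival part is of similar height in both (85.0 TPM in shEIF3F, 72.4 TPM in shCON), while the effector and BH3-only parts are smaller in shEIF3F.

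Ratios between genes of the same library do not depend on how the libraries are scaled to each other. Effector and BH3-only transcripts together were 1.61 times the pro-survival transcripts in shEIF3F and 5.05 times in shCON, a 3.14-fold smaller ratio. For single genes, the ratio of BAX to BCL2L1 was 1.28 in shEIF3F and 3.23 in shCON. The ratio of BAX to MCL1 was 1.28 in shEIF3F and 4.64 in shCON, that of BAD to BCL2L1 was 0.980 in shEIF3F and 3.64 in shCON, and that of BBC3 to MCL1 was 0.253 in shEIF3F and 1.03 in shCON. These pairs were formed from genes already seen to be lower, so their direction follows from that choice. The ratio of BID to BCL2L1 went the other way, at 0.155 in shEIF3F and 0.120 in shCON, and that of BCL2L11 to BCL2L1 was 0.181 in shEIF3F and 0.185 in shCON. The balance within the effectors moved less, with a BAX to BAK1 ratio of 3.62 in shEIF3F and 4.72 in shCON. These are ratios of transcripts and say nothing of protein.

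Scaling moved the single calls. The median of all genes was below 0, and centring the ratios on it adds 0.36 to each. BAX was then less than 2-fold lower (-0.96), while BAD (-1.51) and BBC3 (-1.07) were past 2-fold, 2 of 9 against 16% of all genes. BCL2L11 changed sign, to 0.33. Rescaling the libraries without their 100 most abundant genes gave the same calls, with BAX at -0.89, BAD at -1.44 and BBC3 at -1.02, against 16.1% of all genes lower. Over all genes tested, 3398 were at least 2-fold lower and 1123 higher as deposited, 2130 and 1957 after centring, and 2147 and 1970 after rescaling.

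**Figure D3:**
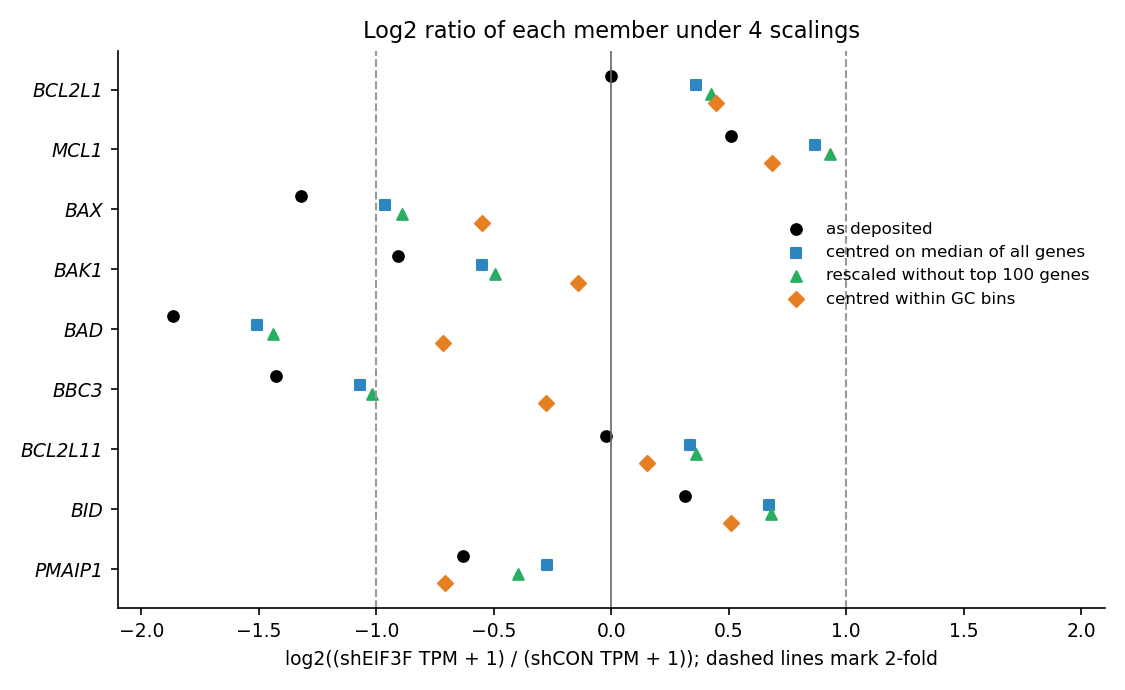
Log2 ratio of shEIF3F over shCON for the 9 genes with a mean of at least 1 TPM, as deposited and under 3 other scalings, with dashed lines at 2-fold. BAD and BBC3 lie past 2-fold lower in all but the ratios centred within GC bins (-0.72 and -0.28), and MCL1 and BID lie above 0 in all 4.

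Log2 ratios also went with the GC content of transcripts. Across 13029 genes, which are not independent replicates, Spearman's rho was -0.318, and over the 9 BCL2 family genes it was -0.77, a description of 9 points that share 2 libraries. The most GC-rich transcripts among the 9 are those of BBC3 (69.7% GC) and BAD (66.3%), both in the bin of highest GC, where the median gene had a log2 ratio of -1.15. BAX and BAK1 (58.9% and 58.8%) share a bin with a median of -0.77, and MCL1 (45.1%) and BCL2L11 (45.7%) one with a median of -0.18. Relative to those medians BAD was at -0.72, BAX at -0.55, BBC3 at -0.28 and BAK1 at -0.14, so 0 of 9 genes were past 2-fold lower, against 14% of all genes. PMAIP1, with the lowest GC content of the 9 (37.2%), was at -0.71, and MCL1 at 0.68. With the same correction the ratio of pro-death to pro-survival transcripts was 2.37 in shEIF3F and 5.05 in shCON, a 2.13-fold smaller ratio. The part of GC content in the differences between the classes was not tested beyond this correction.

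**Figure D4:**
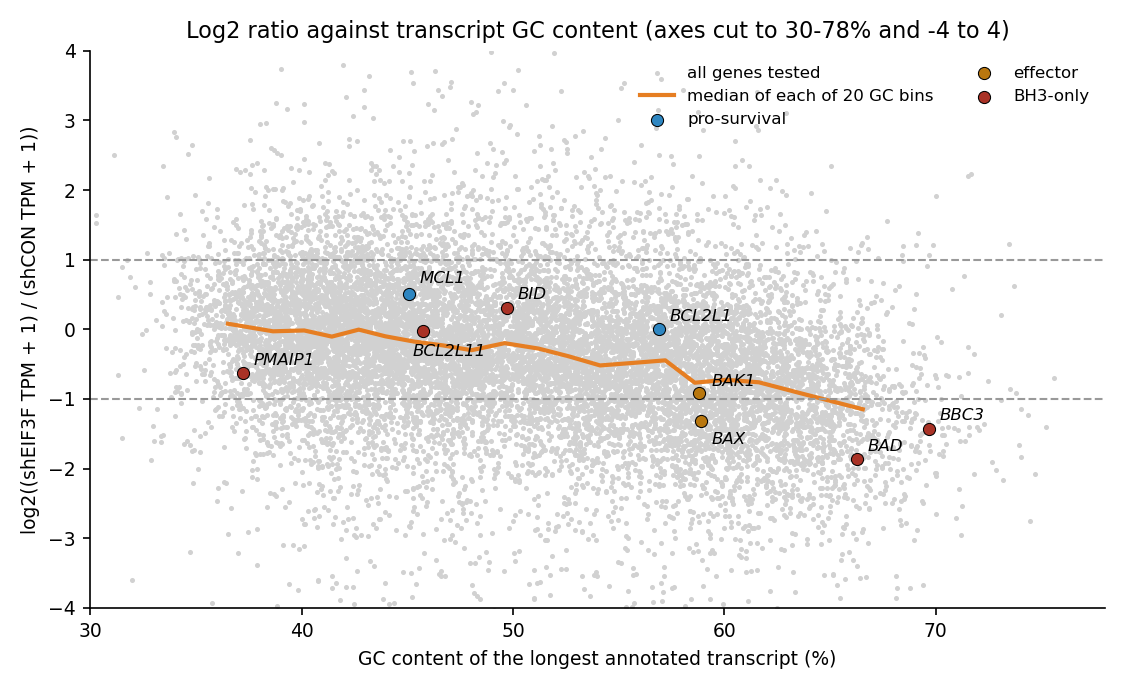
Log2 ratio of shEIF3F over shCON against the GC content of the longest annotated transcript (percent), with all genes tested in grey, the median of 20 GC bins as a line and the 9 BCL2 family genes coloured by class. BAD, PMAIP1, BAX and BAK1 lie below the line and MCL1, BID, BCL2L1 and BCL2L11 above it. BBC3, at 69.7% GC, lies right of where the line ends, and below the median of its bin (-1.15).

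Promoter windows of the 3 genes past 2-fold, and of BCL2L1 as the gene closest to no difference, are shown because the differences between the classes turn on these genes. Each is the RefSeq sequence of build GRCh38.p14, from 250 bases before to 50 after the annotated start, read 5′ to 3′ on the gene's strand. Capitals mark GGGCGG, the GC box bound by SP1, and CACGTG, the E-box bound by MYC-MAX dimers, searched on both strands.
BAX promoter, chr19:48954625-48954924, plus strand: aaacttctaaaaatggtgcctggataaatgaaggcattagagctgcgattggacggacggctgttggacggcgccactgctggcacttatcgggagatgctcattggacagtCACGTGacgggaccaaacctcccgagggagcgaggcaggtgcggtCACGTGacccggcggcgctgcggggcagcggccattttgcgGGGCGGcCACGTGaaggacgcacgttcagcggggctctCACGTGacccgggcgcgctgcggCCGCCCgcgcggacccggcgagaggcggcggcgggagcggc
BAD promoter, chr11:64284655-64284954, minus strand: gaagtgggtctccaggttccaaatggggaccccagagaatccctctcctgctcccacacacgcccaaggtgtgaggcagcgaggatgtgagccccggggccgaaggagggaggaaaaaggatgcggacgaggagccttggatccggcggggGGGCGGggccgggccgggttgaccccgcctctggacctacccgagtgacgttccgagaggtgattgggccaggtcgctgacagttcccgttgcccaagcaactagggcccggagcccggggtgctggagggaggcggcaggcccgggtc
BBC3 promoter, chr19:47232618-47232917, minus strand: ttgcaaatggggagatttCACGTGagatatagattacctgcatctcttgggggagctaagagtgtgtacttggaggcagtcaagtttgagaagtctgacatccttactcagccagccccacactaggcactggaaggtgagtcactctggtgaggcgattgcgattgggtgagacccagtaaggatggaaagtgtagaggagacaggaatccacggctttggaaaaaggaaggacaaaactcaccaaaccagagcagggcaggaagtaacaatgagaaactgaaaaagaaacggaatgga
BCL2L1 promoter, chr20:31723914-31724213, minus strand: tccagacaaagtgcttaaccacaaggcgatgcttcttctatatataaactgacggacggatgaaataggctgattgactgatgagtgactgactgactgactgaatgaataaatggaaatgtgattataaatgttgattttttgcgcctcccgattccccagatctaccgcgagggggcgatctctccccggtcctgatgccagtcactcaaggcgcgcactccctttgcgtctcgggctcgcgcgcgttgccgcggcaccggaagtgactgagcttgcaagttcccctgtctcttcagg
BAX held 4 E-boxes and 2 GC boxes in this window, BBC3 held 1 E-box and BAD 1 GC box, while the BCL2L1 window shown held neither. The second BCL2L1 window held 1 GC box. Among the other genes within 2-fold, the windows of BCL2L11, BAK1 and PMAIP1 held 3, 2 and 4 GC boxes, and the first BID window 4. The BCL2 window held neither motif. Whether these motifs bear on the differences was not tested. Over all 15 windows of the family, 11 held a GC box and 4 an E-box, 2 of these among the 5 windows of BID. Windows of 1 gene can overlap, as do both BAD windows and the 2 BID windows with an E-box. A motif copy can thus be counted more than once. Of all 35116 windows in the table, 7.26% held an E-box, 0.0142% held at least 4 (5 windows), and 45.0% held a GC box. Windows were found for 9 of the 10 genes, 15 windows in all, as some genes have several annotated starts, and MCL1 was not among them. The E2F motifs TTTCGCGC and TTTGGCGC, in 0.515% and 0.652% of all windows, were in 0 of the 15. A match is a run of letters and not a shown binding site, and its absence concerns this window alone.

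Genes for transcriptional regulators of the family and MDM2 had a median log2 ratio of -0.24 over the 16 of 17 that reached a mean of 1 TPM, beside -0.36 over all genes. Of the 16, 11 were within 2-fold, 4 were at least 2-fold lower and 1 higher, shares close to the 25.5% and 8.44% of all genes. MYC stood at 36.7 TPM in shEIF3F and 228 TPM in shCON (log2 ratio -2.60). E2F1, a cell cycle factor that can induce BH3-only genes, stood at 1.97 TPM in shEIF3F and 46.8 TPM in shCON (-4.01). MDM2, a ubiquitin ligase, was higher, at 44.5 TPM in shEIF3F and 13.7 TPM in shCON (1.63).

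The 13 other genes of the family went both ways. Of these, 9 reached a mean of 1 TPM, with 4 at least 2-fold lower in shEIF3F and 1 higher, beside 25.5% and 8.44% of all genes, and a median of -0.30. The lower ones numbered 3 after centring, against 16% of all genes, and 2 with ratios centred within GC bins, against 14%. The exception in size was BCL2L14 (BCL-G), at 12.4 TPM in shEIF3F and 0.20 TPM in shCON (log2 ratio 3.48), above 99.8% of genes tested under the ratio as deposited. BCL2L12, a divergent member, stood at 16.9 TPM in shEIF3F and 90.0 TPM in shCON (-2.35), though its exons overlap those of IRF3 on the opposite strand (70.6 TPM in shEIF3F and 109 TPM in shCON). The effector relative BOK stood at 5.56 TPM in shEIF3F and 20.6 TPM in shCON (-1.72, but -0.57 centred within GC bins). The mitophagy receptor BNIP3 stood at 23.8 TPM in shEIF3F and 54.1 TPM in shCON (-1.16). BNIP3 was within 2-fold after centring (-0.80) and when centred within GC bins (-0.88). BCL2L2, the pro-survival gene for BCL-W, stood at 3.12 TPM in shEIF3F and 14.3 TPM in shCON (-1.89), so pro-survival genes were not all level or higher. It shares exons with the read-through gene BCL2L2-PABPN1, and together they gave 9.78 TPM in shEIF3F and 19.9 TPM in shCON. Within 2-fold were the BH3-only genes BIK (0.24) and BMF (-0.30) and the mitophagy receptors BCL2L13 (0.33) and BNIP3L (-0.18). BCL2L10, HRK and BCL2L15 stood at 0.36 TPM or less in both libraries, and BCL2A1 was listed at 0 in both. Among the 10 genes, BAD overlaps exons of GPR137 on the opposite strand (24.8 TPM in shEIF3F and 37.5 TPM in shCON), and no label says whether counting used strand. The BAK1 pseudogene BAK1P1 was at 0.25 TPM in shEIF3F and 0.65 TPM in shCON.

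Downstream of the effectors, genes for proteins released from mitochondria and for the apoptosome had a median of -0.37 over 11 genes, beside -0.36 over all genes. Of these, 2 were at least 2-fold lower and 0 higher, against 25.5% and 8.44% of all genes. Cytochrome c (CYCS) stood at 87.1 TPM in shEIF3F and 62.8 TPM in shCON (log2 ratio 0.47), and DIABLO, an antagonist of the inhibitors of apoptosis that was named after its values were seen, at 84.3 TPM in shEIF3F and 57.9 TPM in shCON (0.53). The lower genes were VDAC1, the outer membrane channel, at 55.7 TPM in shEIF3F and 169 TPM in shCON (-1.59), and the nuclease ENDOG at 57.0 TPM in shEIF3F and 142 TPM in shCON (-1.30). ENDOG was within 2-fold once ratios were centred (-0.94) or centred within GC bins (-0.15). VDAC1 stayed past 2-fold under both (-1.23 and -1.36). The protease HTRA2 (-0.80) and VDAC3 (-0.62) were within 2-fold.

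Inhibitors of apoptosis, several of which bind caspases, had a median of -0.51 over the 4 of 6 measured, with 2 at least 2-fold lower and 0 higher, beside 25.5% and 8.44% of all genes. BIRC5, encoding survivin and known for its peak in mitosis, stood at 1.32 TPM in shEIF3F and 127 TPM in shCON (log2 ratio -5.78), and XIAP at 1.78 TPM in shEIF3F and 4.62 TPM in shCON (-1.02). BIRC2 was at 4.45 TPM in shEIF3F and 2.48 TPM in shCON (0.65), and BIRC6 was level (-0.01). XIAP was within 2-fold once ratios were centred (-0.66), whereas BIRC2 then reached 2-fold higher (1.00). BIRC2 was within 2-fold after rescaling (0.98) and when centred within GC bins (0.68).

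BAD is held inactive by kinases that phosphorylate it and by 14-3-3 proteins that then bind it. That list had a median of -0.97 over 16 measured genes, with 8 at least 2-fold lower in shEIF3F and 0 higher, where 25.5% and 8.44% of all genes were. After centring 5 were lower, against 16% of all genes. The kinase PIM1 stood at 0.35 TPM in shEIF3F and 10.2 TPM in shCON (log2 ratio -3.05), and the protein kinase A subunit PRKACB at 3.07 TPM in shEIF3F and 28.7 TPM in shCON (-2.87). The 14-3-3 gene YWHAE stood at 54.5 TPM in shEIF3F and 395 TPM in shCON (-2.84), and SFN (14-3-3 sigma) at 24.8 TPM in shEIF3F and 163 TPM in shCON (-2.66). The other 8 were within 2-fold, among them YWHAZ, which was higher (0.34, named after its values were seen).

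**Figure D5:**
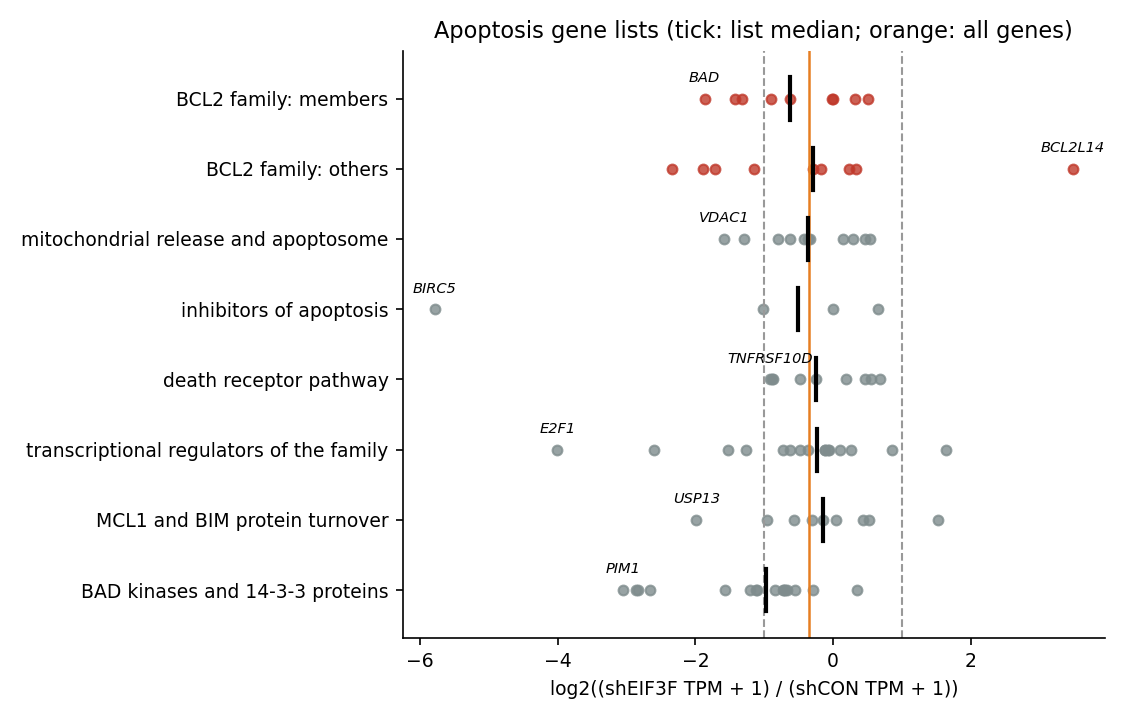
Log2 ratio of shEIF3F over shCON for each measured gene (points) of the 10 BCL2 family members, the other family genes and 6 lists of apoptosis genes, with the list median as a tick, the median of all genes as an orange line, and the gene of largest absolute ratio in each list named. BCL2L14 lies far to the right (3.48), and BIRC5 far to the left (-5.78).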

How the data were processed

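The authors deposited TPM values by gene symbol for 1 shEIF3F and 1 shCON library, rounded to 2 decimals. Per the submitters' processing notes, CASAVA and HISAT2 were used, with genome build hg19. The counter, annotation and strand setting: not given in the sources used here. Columns were matched to groups by the sample descriptions.

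Of 58884 entries, those repeating a symbol were summed, 27 entries turned into dates by spreadsheet software were left out (so MARCHF5, on the turnover list, is not analysed here), and 6030 symbols of small RNA genes were left out. GC content, length and exon overlap come from GENCODE release 29 (98.7% of symbols found), which describes another build than hg19, so no gene coordinates were taken from it. GC content was known for 97.9% of the genes tested. GC-corrected ratios were centred within 20 bins. The same offsets, applied to shEIF3F TPM, gave the corrected sums, with BCL2 left as deposited. TPM keeps no depth, so no interval or detection limit was computed.

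The members, gene lists and settings were chosen with earlier results of these data known. Genes named are EIF3F, all BCL2 family genes, CYCS and up to 4 genes per list with the largest absolute log2 ratio. Not every gene or list this covers is reported here. With 2 libraries, no ranking of genes by likeness of pattern was made. Markers named beside the lists and overlapping genes (KRT8, PTPRC, PDGFRA, IRF3, GPR137, BAK1P1) were named after their values were seen. Calculations used Python 3.11.15, NumPy 2.4.6, pandas 2.3.3 and SciPy 1.17.1, with figures from matplotlib 3.10.9. Only the log2 ratio and the centring within GC bins were tested on simulated data, with another pseudocount and minimum mean.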

Additional observations from a re-analysis of the deposited data

How the results depend on the processing

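The count of 3 genes at least 2-fold lower among the 9 was 4 with a pseudocount of 0.1 (PMAIP1 added, at -1.06), 2 after centring, rescaling or centring within length bins, and 0 after centring within GC bins. The median of the members stayed below 0 and the pro-survival sum above 0 in all 9 alternatives. For the pro-survival sum this was fixed in advance under the pseudocounts, the TPM filters, the choice of entry and centring, which adds 0.36. Only rescaling and the GC and length corrections could have changed its sign. The effector sum was less than 2-fold lower after centring (-0.89), rescaling (-0.82), GC (-0.49) and length correction (-0.92), and the BH3-only sum after GC correction (-0.58). Length correction put BBC3 at -0.95. Over all 13307 genes tested, those lower and higher by 2-fold numbered 4045 and 1478 with a pseudocount of 0.1, beside the 4 members lower. They numbered 1897 and 474 with a pseudocount of 5, and 2373 and 615 with the minimum mean raised to 5 TPM. They were 2130 and 1957 after centring and 2147 and 1970 after rescaling. With GC correction they were 1820 and 1727, and with length correction 2131 and 1894. Of 80 values of single members under alternatives, 69 kept their sign and their side of 2-fold. Some of these were fixed in advance, since other TPM filters and the most abundant entry per symbol leave the members' ratios unchanged. Smaller counts of lower genes after centring follow from the added 0.36. Length correction gave nearly the counts of plain centring over all genes, and a trend with length was not measured. The cause of the trend with GC content was not tested. With 1 library per group, no replicate could be left out. No paired analysis was possible because each group has 1 sample. Depth is unknown, so the precision of values under 1 TPM, such as those of BCL2, PMAIP1 in shEIF3F and BCL2L14 in shCON, cannot be given.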

Other observations

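Genes of the death receptor pathway, which reaches the mitochondria through BID, were within 2-fold in all 9 measured members as deposited. Of all genes tested, 25.5% were at least 2-fold lower and 8.44% higher. The list had a median log2 ratio of -0.24, beside -0.36 over all genes. TNFRSF1A was at 0.55 as deposited and reached 2-fold higher when centred within GC bins (1.00). The death receptor FAS stood at 3.29 TPM in shEIF3F and 1.68 TPM in shCON (0.68), and was just past 2-fold higher after centring (1.04). FAS was also past 2-fold with length correction (1.08), but not after rescaling (0.98) or centring within GC bins (0.71). The decoy receptor TNFRSF10D stood at 3.77 TPM in shEIF3F and 7.97 TPM in shCON (-0.91). The adaptors TRADD (-0.90) and FADD (-0.88) were also lower as deposited, but stood at 0.25 and -0.11 when centred within GC bins. CASP8, which cuts BID, was at 0.36 TPM in shEIF3F and 1.56 TPM in shCON, under the mean of 1 TPM needed for a ratio. Its values, and those of other genes not among the 4 largest ratios of their list, were named after they were seen.

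Genes for the turnover of the MCL1 and BIM proteins had a median log2 ratio of -0.15 over 9 genes, not all of which are reported singly. DUSP6, a phosphatase of growth factor signalling, stood at 4.09 TPM in shEIF3F and 0.78 TPM in shCON (1.52). USP13, a deubiquitinase reported to stabilise MCL1, stood at 0.57 TPM in shEIF3F and 5.23 TPM in shCON (-1.99). HUWE1, a ubiquitin ligase for MCL1, stood at 12.3 TPM in shEIF3F and 24.9 TPM in shCON (-0.96). MCL1 transcript was higher in shEIF3F by a log2 ratio of 0.51.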
